A study of Mus musculus with 12 samples.

Results

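The genes described here are those of oxidative phosphorylation, the process by which the inner mitochondrial membrane turns the oxidation of nutrients into ATP. They were read in RNA sequencing of mouse prostate tissue. Complex I (NADH dehydrogenase) and complex II (succinate dehydrogenase) pass electrons to ubiquinone, complex III (cytochrome bc1) hands them to cytochrome c, and complex IV (cytochrome c oxidase) passes them to oxygen. The protons that complexes I, III and IV move across the membrane drive complex V, the ATP synthase. Complexes I, III, IV and V are built from subunits of both genomes. Mitochondrial DNA encodes the hydrophobic core of each, while the remaining subunits and the whole of complex II come from the nucleus. Normal prostate epithelium is known for exporting citrate rather than oxidising it fully. The rule for members uses gene symbols and no measured value: the Nduf, Sdh, Uqcr, Cox and Atp5 families and the mt-Nd, mt-Co, mt-Cytb and mt-Atp genes. The rule found 96 of the 41042 listed genes, 83 of them nuclear and 13 on the mitochondrial genome. The nuclear members comprised 36 subunits of complex I, 4 of complex II, 8 of complex III, 15 of complex IV and 15 of complex V. They also included 3 pseudogenes and 2 genes with Atp5 symbols that are not subunits of the ATP synthase. These 2 are Atp5s and Atp5sl, the latter listed as Dmac2 in the GENCODE annotation.

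The study asked how the TMPRSS2-ERG fusion acts in prostate tumours together with alteration of the tumour suppressor p53. It covered deletion and, as its main subject, gain-of-function mutants of p53. Libraries with mutant p53 were not analysed here. All 12 libraries came from prostate tissue of C57BL/6 mice aged 15 months, with 3 libraries for each of 4 genotypes. WT mice were littermates. Pb-ERG mice carry a TMPRSS2-ERG transgene under the probasin promoter, which is active in prostate epithelium. Trp53pc-/- mice have Trp53 deleted in the prostate by Cre from the probasin promoter (Pb-Cre4). The Pb-ERG, Trp53pc-/- mice, called double mutants below, carry both. The tissue was not sorted, so that in every result below fewer cells of a type and less RNA per cell cannot be told apart. The replicates are biological. Each p-value rests on the spread between libraries of the same genotype, pooled over all 4 genotypes with 3 libraries each, and not on the compared groups alone.

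Libraries held 19747635 to 32565774 fragments. Nuclear members took 0.644 to 1.02% of them and mitochondrial members 1.08 to 3.03%. Erg stood at 0.33 to 1.09 in the 6 libraries without the transgene and at 6.86 to 20.4 in the 6 with it, on the scale given below. Trp53 stood at 10.4 to 12.6 in WT, 14.8 to 19.1 in Pb-ERG, 6.56 to 11.3 in Trp53pc-/- and 9.98 to 16.2 in double mutants. Trp53pc-/- overlapped with WT and 2 double mutants lay above every WT library, so the deletion was not visible as a lower level of the whole gene, and the Trp53 genotypes below rest on the labels. Double mutant replicate 3 stood apart from the other 11 libraries. Its 11 luminal epithelial markers summed to 1394, against 10222 to 31454 elsewhere, its 4 proliferation markers to 72.9 against 3.29 to 14.2, and its 10 skeletal muscle markers to 611 against 27.6 to 225. Among the latter Tnnt3 reached 121 and Mylpf 81.4. The luminal markers were above 0 in every library. This does not test the prostate label, because the list includes general epithelial genes such as Krt8 and Epcam. Seminal vesicle markers summed to between 1.41 and 54890 and varied within each genotype. The part of these differences in tissue content in the results below was not tested. Member results are given with and without double mutant replicate 3 where they rest on it, and marker results with all libraries.

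Levels are given as scaled FPKM, which is the deposited FPKM (fragments scaled by exon length and by library total) divided by a library factor set so that the typical gene is equal across libraries. The factors ran from 0.811 to 1.33. A set of 17 highly abundant genes took between 3.04 and 34.7% of a library. Without the factors, the median gene was 0.35 higher in double mutants than in WT on the log2 scale and 0.22 higher in Pb-ERG than in WT. With totals taken without the abundant genes, it was still 0.11 higher in double mutants than in WT. Directions are therefore read relative to the median gene, and the named genes and medians that turn on the deposited scale are given with their values there. Changes are differences of log2(scaled FPKM + 1), which understates those of genes near 1, from a limma fit across 17623 genes and all 12 libraries. A member rose or fell where its Benjamini-Hochberg adjusted p over these genes was under 0.05. Of the 83 nuclear members, 76 passed the filter of 10 fragments in 3 libraries, among them 74 of the 78 subunits, and 10 of the 13 mitochondrial members passed. Counts over the members that passed describe those genes and not the whole family. The nuclear members that missed the filter were Cox6a2, Cox7b2, Cox8b, Cox8c, Atp5l-ps1, Atp5l-ps2 and Atp5l2-ps.

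The 13 mitochondrial members fell into 2 sets by level. The 7 genes listed high and the 6 listed low were separated by a wide gap. The most abundant, mt-Co1 (the catalytic subunit of complex IV), was listed at 3241 to 7263 scaled FPKM. mt-Cytb (the cytochrome b of complex III) and the complex I subunits mt-Nd1, mt-Nd2, mt-Nd4, mt-Nd5 and mt-Nd6 were at 582 or more in every library. By contrast mt-Co2 lay between 0.50 and 2.71, mt-Co3 between 0.22 and 2.77, mt-Atp6 between 0.20 and 2.60, mt-Nd3 between 0.20 and 1.68, mt-Nd4l between 0 and 1.41 and mt-Atp8 between 0 and 0.86. mt-Nd3, mt-Nd4l and mt-Atp8 missed the filter. mt-Co2 and mt-Co3 encode subunits of the same enzyme as mt-Co1, and all are cut from long shared transcripts. Of the 6 low genes, 5 share nearly all their sequence with other genes. Of every stretch of 50 bases in its transcript, mt-Co2 shared 100% with another annotated gene, mt-Co3 99.9%, mt-Atp6 99.5%, mt-Nd4l 98.8% and mt-Nd3 98.0%. mt-Nd1, mt-Nd6 and mt-Cytb shared 0%, mt-Nd2 8.19%, mt-Nd5 7.61%, mt-Co1 51.1% and mt-Nd4 62.2%. mt-Atp8 was low and shared 0% with annotated genes, but 21.1% of its exon bases overlap with mt-Atp6 on the same strand. That overlap gave no shared stretch of 50 bases. How fragments that map to several places were treated is not given in the sources used here, and the part of shared sequence in these levels was not tested beyond these values.

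Shared bases of mt-Co1, mt-Co2, mt-Co3, mt-Atp6, mt-Nd3, mt-Nd4 and mt-Nd4l lie in a copy of mitochondrial DNA on chromosome 1 (chr1:24611535-24616197, minus strand, GRCm38). GENCODE annotates this copy as a row of genes. Other annotated genes share bases too: Gm13339 with mt-Nd2, and Gm4076 and Gm11407 with mt-Nd5. Gm13340 and Gm11512 also share with mt-Co1, Gm13341 with mt-Co2 and AC124578.3 with mt-Atp6. These were not aligned. Gm28661 matches mt-Co2 over 681 of 681 bases, Gm28437 matches mt-Co3 over 783 of 783, Gm10925 matches mt-Atp6 over 678 of 678, and Gm10222 matches mt-Nd4l over 294 of 294. Gm28439 matches the first 876 bases of mt-Nd4 without a difference. Gm28438 differs from mt-Nd3 in 1 of 345 bases (T3C, counted from 1 at the 5′ end of mt-Nd3), and it was listed at 4.52 to 13.7, above mt-Nd3 itself. Gm29216 matches the last part of mt-Co1 over 486 of 492 bases. Its 6 differences (T1056A, C1057T, A1059G, A1060G, C1062A and A1066T) all lie near the start of the copied stretch and are followed by 479 identical bases. The chromosome 1 copies other than Gm28438 were listed at 1.05 or less. Between Gm10925 and Gm28661, the copies of the genes on either side of mt-Atp8, no gene is annotated. That stretch was not compared with mt-Atp8, so its 0% does not cover it. Stretches of 3 pairs are shown so that the copies can be compared base by base, and mt-Nd4, which is listed high, shares its first 876 bases as fully as mt-Co2 does. Capitals mark bases that differ within a pair.
mt-Co2: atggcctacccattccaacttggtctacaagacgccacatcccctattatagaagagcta
Gm28661: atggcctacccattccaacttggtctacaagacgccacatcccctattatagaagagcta
mt-Nd3: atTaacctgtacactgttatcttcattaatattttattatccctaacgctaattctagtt
Gm28438: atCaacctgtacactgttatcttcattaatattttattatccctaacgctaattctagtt
mt-Co1: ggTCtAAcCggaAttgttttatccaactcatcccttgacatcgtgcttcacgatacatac
Gm29216: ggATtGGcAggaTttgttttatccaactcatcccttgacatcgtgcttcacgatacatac
For mt-Co2 and mt-Nd3 the first 60 bases are printed, and for mt-Co1 bases 1054 to 1113. The mt-Co2 pair shows no difference, whereas the mt-Co1 pair is told apart by its capitals. In what follows, mitochondrial levels are read from the 7 genes with over 1000 fragments in every library. mt-Nd5 and mt-Nd6 lie on opposite strands and overlap by 0.768 and 2.7% of their exon bases, and the library kit did not mark strand.

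**Figure D1:**
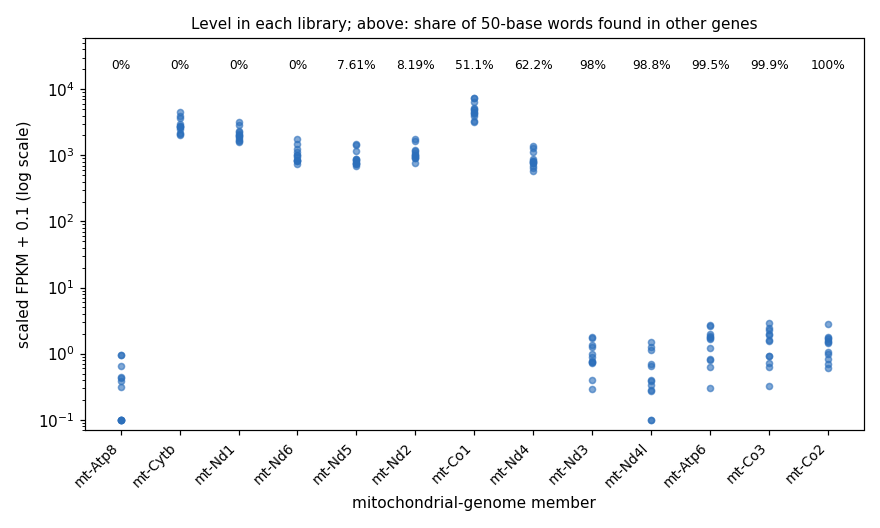
Level of each of the 13 mitochondrial members in the 12 libraries (points, scaled FPKM + 0.1, log axis), with the genes in order of the share of their 50-base stretches found in other annotated genes, which is printed above each. The 5 genes with 98.0% or more shared and mt-Atp8 with 0% lie at 2.77 scaled FPKM or less, and the other 7 lie at 582 or more.

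Each complex was led by a gene at 303 scaled FPKM or more in every library, except complex II. In complex I, Ndufa4 (a subunit now placed with complex IV by its structure) stood at 402, 692 and 425 in WT, 415, 310.2 and 354 in Pb-ERG, 561, 606 and 467 in Trp53pc-/-, and 385, 431 and 455 in double mutants. In complex II, Sdhd (a membrane anchor) stood at 118, 148 and 112 in WT, 93.1, 65.9 and 79.5 in Pb-ERG, 142, 132 and 88.2 in Trp53pc-/-, and 89.9, 88.4 and 103 in double mutants. In complex III, Uqcrh (the hinge protein) stood at 460.4, 987 and 460.5 in WT, 448, 321 and 443 in Pb-ERG, 586, 645 and 488 in Trp53pc-/-, and 439, 534 and 594 in double mutants, and WT replicate 2 was the highest of the 12. Cox6b1 led complex IV at 374, 504 and 399 in WT, 396, 303 and 343 in Pb-ERG, 429, 487 and 371 in Trp53pc-/-, and 350.1, 369 and 405 in double mutants. Atp5b (the catalytic beta subunit) led complex V at 574, 517 and 586 in WT, 526, 396 and 459 in Pb-ERG, 616, 565 and 483 in Trp53pc-/-, and 399.9, 443 and 443 in double mutants. In all 5, Pb-ERG replicate 2 was the lowest library, and WT replicate 2 was the highest for all but Atp5b.

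The level of the nuclear family varied between libraries of 1 genotype. The median nuclear member lay 0.06 below its 12-library mean in WT replicate 1, 0.33 above it in replicate 2 and 0.07 below it in replicate 3, on the log2 scale. In Pb-ERG it lay 0.08, 0.37 and 0.19 below. In Trp53pc-/- it lay 0.23, 0.45 and 0.06 above. In double mutants it lay 0.26 and 0.11 below and 0.03 above. All Trp53pc-/- values were thus above 0 and all Pb-ERG values below, while WT spanned both. Trp53pc-/- replicate 2 was the highest library for 30 of the 76 members, WT replicate 2 for 25, and double mutant replicate 3 for 11. Pb-ERG replicate 2 was the lowest library for 36. Transcript length moved with the level of WT replicate 2. Against the other WT libraries it stood 0.54 higher in nuclear members under 600 bases, 0.34 at 600 to 1500 bases and 0.11 in longer ones. Over all tested genes the same differences were 0.16, 0.11 and -0.05. Its adipocyte markers summed to 283, against 28.2 and 35.8 in the other WT libraries. The part of length and tissue content in its levels was not tested. Against the other libraries of its genotype, Trp53pc-/- replicate 2 stood 0.32, 0.32 and 0.18 higher in the same length classes. Double mutant replicate 3 stood 0.22, 0.33 and 0.07 higher.

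The mitochondrial genome did not follow the nuclear members library by library. The median of the 7 genes deviated by -0.47, 0.66 and -0.08 in WT, by -0.34, 0.60 and -0.26 in Pb-ERG, by -0.11, -0.12 and 0.34 in Trp53pc-/- and by -0.09, -0.10 and 0.00 in double mutants. WT replicate 1 was the lowest library for 7 of the 7 genes. WT replicate 2 was the highest for 3 and Pb-ERG replicate 2 for 4. Pb-ERG replicate 2 therefore combined the lowest nuclear with among the highest mitochondrial levels. Fragments of mitochondrial members outnumbered those of nuclear members in every library. Their ratio was 1.56, 2.72 and 2.06 in WT, 1.73, 4.36 and 2.09 in Pb-ERG, 1.71, 1.70 and 2.69 in Trp53pc-/- and 2.47, 2.32 and 2.25 in double mutants. The genotypes overlapped in this ratio, and the SD within WT (0.586) and within Pb-ERG (1.42) was wider than within double mutants (0.114).

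**Figure D2:**
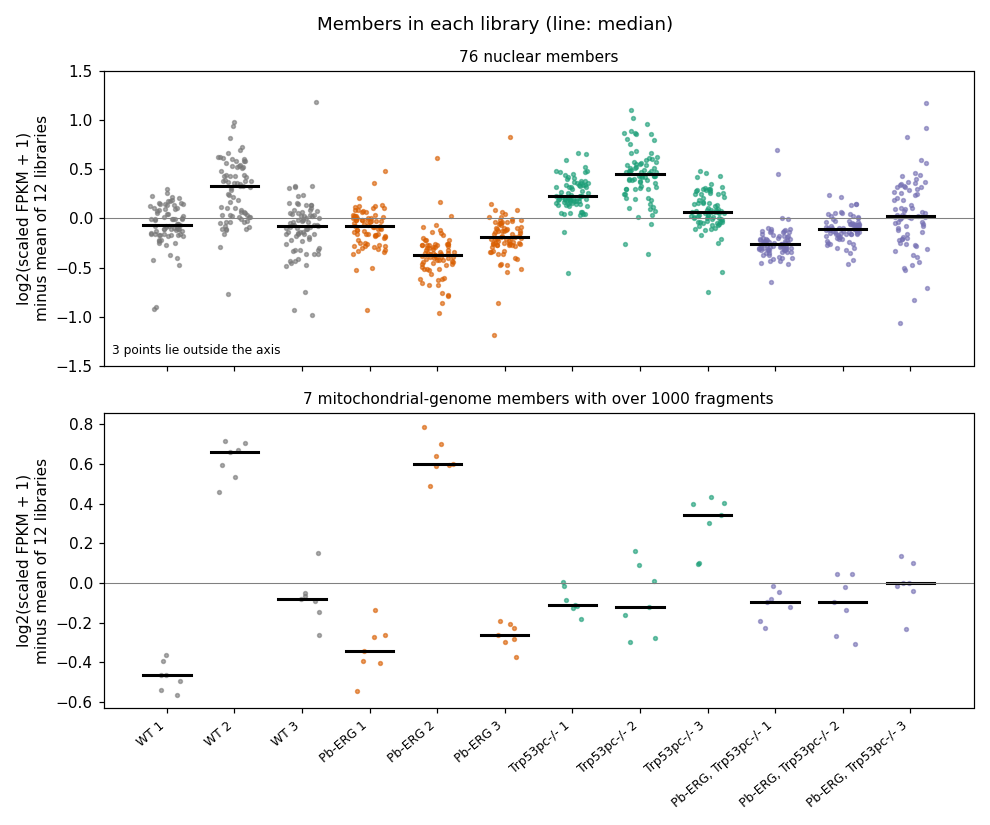
Log2(scaled FPKM + 1) of each nuclear member (upper panel, 76 genes) and each of the 7 mitochondrial members with over 1000 fragments (lower panel) minus the gene's mean over the 12 libraries, by library. Points are genes, lines are medians and colours are genotypes, and 3 points lie outside the upper axis. The nuclear medians lie above 0 in the 3 Trp53pc-/- libraries and below 0 in the 3 Pb-ERG libraries, and the mitochondrial medians spread most in WT and Pb-ERG.

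**Figure D3:**
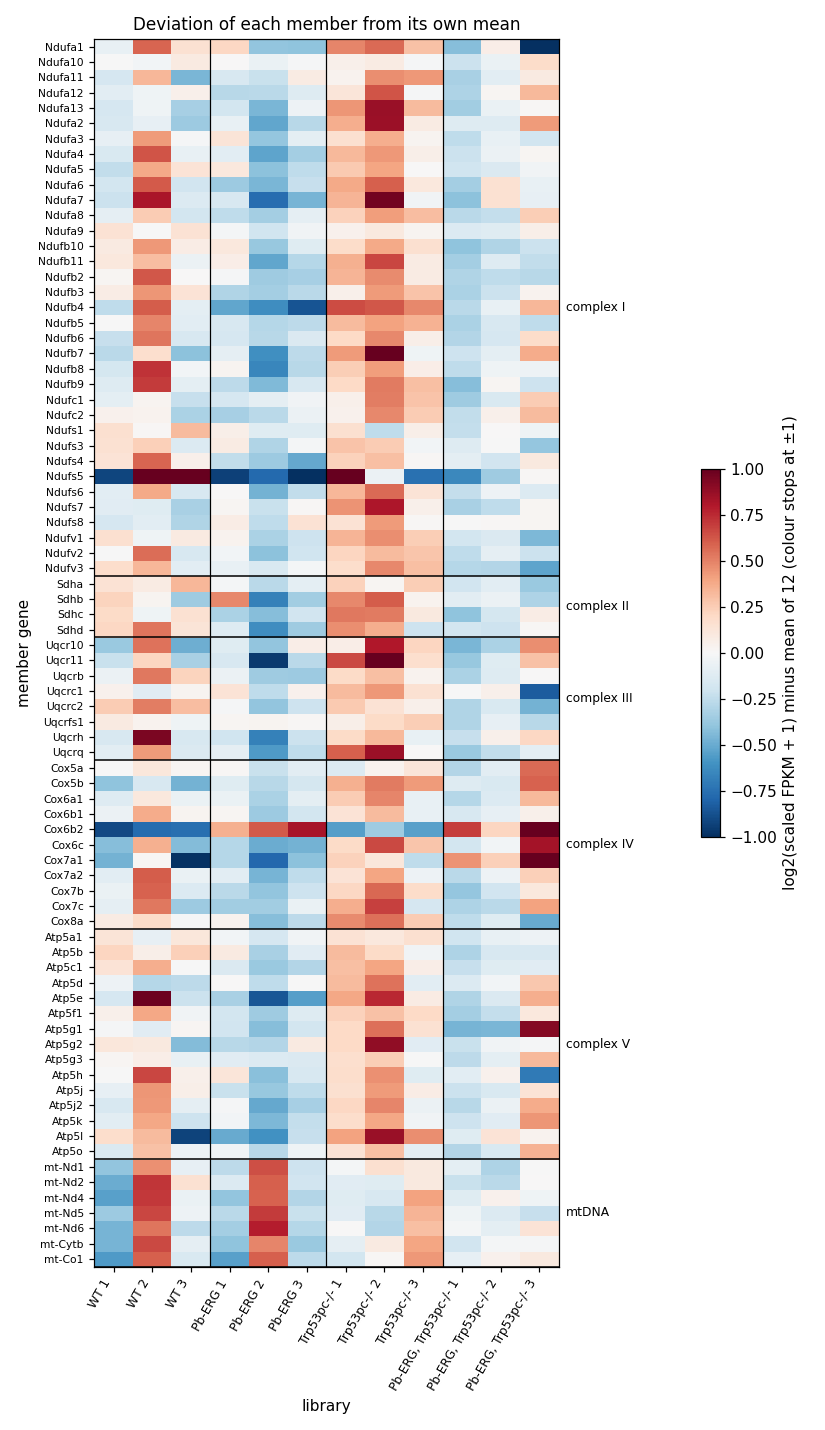
Log2(scaled FPKM + 1) of 73 of the 74 tested nuclear subunits (rows, by complex) and the 7 mitochondrial members minus each gene's mean over the 12 libraries (columns, by genotype), in colour that stops at 1 in either direction. Pb-ERG replicate 2 is low across most nuclear rows and high across mitochondrial rows, and WT replicate 2 and Trp53pc-/- replicate 2 are high across most nuclear rows.

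The comparison of Pb-ERG with WT asks what the ERG transgene does alone. Among the nuclear members, Cox6b2 (the testis form of a complex IV subunit) rose and no member fell. This is 1 called higher and 0 lower of 76, where 1.11% of all tested genes were called higher and 0.437% lower. At an unadjusted p under 0.05, 1 member was higher and 16 were lower (21.1%), where 11.2% and 8.54% of tested genes were, and voom on the recovered fragment counts called 0 in either direction. The median nuclear change was -0.28, against 0.00 over all genes, and 69 of the 76 estimates were below 0. All 3 Pb-ERG libraries lay below all 3 WT libraries for 23 members (30.3%), where 14.6% of tested genes did so, and above for 1, where 16.0% did. WT replicate 2 and Pb-ERG replicate 2, which deviated most in these groups, both add to this distance, and without WT replicate 2 the median was -0.16. On the deposited scale the median nuclear change was 0.04, which is above 0 but below the 0.22 of all genes, and Cox6b2 was again the 1 member called higher with 0 lower, where 2.0% and 0.176% of tested genes were. Leaving out 1 library at a time kept the median between -0.37 and -0.16. No gene of the cell type marker lists was called in this comparison by limma. Summed luminal markers were 17290 to 31454 in WT and 13465 to 16680 in Pb-ERG, and proliferation markers 3.29 to 4.17 and 7.91 to 14.2, both without overlap. Within the luminal sum, Pbsn read 11710 to 23530 in WT and 5887 to 7193 in Pb-ERG. Msmb overlapped, at 3722 to 6693 and 4900 to 9575, and the median change over luminal markers was 0.09. The median change was 1.11 over fibroblast, 0.83 over immune and -0.94 over smooth muscle markers, and the part of these in the nuclear members was not tested.

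The members that separated Pb-ERG from WT came from every nuclear complex. Estimates were below 0 for 33 of 36 complex I genes, 4 of 4 complex II genes, 8 of 8 complex III genes, 9 of 11 complex IV genes and 14 of 15 complex V genes. As deposited, estimates were above 0 for 21, 2, 3, 9 and 9 of these genes. Sdhd, given above, did not overlap between WT and Pb-ERG and had a change of -0.66 (SE 0.21, adjusted p = 0.127, limma). Uqcrc2 (a core protein of complex III) read 135, 162 and 140.2 in WT, 112, 85.8 and 98.0 in Pb-ERG, 136, 125 and 117 in Trp53pc-/-, and 91.5, 102 and 81.4 in double mutants, with a change of -0.56 (SE 0.15, adjusted p = 0.0878, limma), and every Pb-ERG library was below every WT library. Of its transcript, 17.6% of the 50-base stretches are shared with Pdzd9 on the other strand. Atp5c1 (the gamma subunit that turns inside the ATP synthase) had a change of -0.43 (SE 0.14, adjusted p = 0.143, limma). The ATP synthase alpha subunit Atp5a1 was nearer to 0, at -0.13, which turned to 0.20 on the deposited scale. The lowest estimate was that of Ndufs5, a complex I subunit, which read 0.848, 18.4 and 6.93 in WT, 0.829, 1.04 and 0.531 in Pb-ERG, 12.6, 2.35 and 1.08 in Trp53pc-/-, and 1.23, 1.73 and 2.52 in double mutants. It varied as widely within WT as between genotypes, and 21.7% of its 50-base stretches are shared with BC002163.

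In Trp53pc-/- against WT, which differ by their labels in the deletion of Trp53, no nuclear member rose or fell. limma called 0 of 76, as it did for all 17623 genes (0.0%), and voom also called 0. At an unadjusted p under 0.05, 10 members were higher (13.2%) and 0 lower, where 4.43% and 3.22% of tested genes were. The median nuclear change was 0.19, against 0.00 over all genes, and 63 estimates were above 0. This median rested on single libraries, at 0.09 without Trp53pc-/- replicate 2, 0.11 without WT replicate 3 and 0.33 without WT replicate 2. Summed skeletal muscle markers were 98.5 to 124 in WT and 150.1 to 225 in Trp53pc-/-, without overlap. Acta1 made up most of each sum, at 72.8 to 96.3 in WT and 115 to 198 in Trp53pc-/-. Tnnc2, the next largest, overlapped, at 20.6 to 22.9 and 16.4 to 24.3. The part of these markers was not tested. Trp53pc-/- libraries lay above all WT libraries for 12 members (15.8%), where 8.59% of tested genes did so, and below for 0, where 9.07% did. Cox5b (a nuclear subunit on the matrix face of complex IV) read 47.0, 55.6 and 44.6 in WT, 57.2, 51.3 and 55.0 in Pb-ERG, 80.1, 89.5 and 84.0 in Trp53pc-/-, and 56.8, 55.8 and 94.5 in double mutants, with a change of 0.78 (SE 0.19, adjusted p = 0.614, limma). Ndufa13 (a complex I subunit also known as GRIM-19) read 43.6, 47.8 and 38.9 in WT, 43.2, 35.5 and 47.5 in Pb-ERG, 67.3, 90.5 and 61.6 in Trp53pc-/-, and 38.3, 46.9 and 49.5 in double mutants, with a change of 0.72 (SE 0.17, adjusted p = 0.614, limma). For both genes the 3 Trp53pc-/- libraries were above every WT library. Of the transcript of Ndufa13, 28.5% of the 50-base stretches are shared with other genes, mainly Tssk6 on the opposite strand.

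In double mutants against WT, Cox6b2 rose, and Uqcrc2, Atp5s and Ndufv3 fell. This is 1 member called higher (1.32%) and 3 lower (3.95%) of 76, below the 8.08% and 6.11% of all tested genes. The median nuclear change was -0.19, against 0.015 over all genes, with 57 estimates below 0, while on the deposited scale 69 were above 0. Double mutants lay below all WT libraries for 17 members (22.4%) and above for 4 (5.26%), where 20.2% and 20.9% of tested genes did so. Uqcrc2 fell by 0.67 (SE 0.15, adjusted p = 0.0195, limma), to 0.627 of its WT mean, and no double mutant library reached a WT library. Atp5s, a mitochondrial factor named after the ATP synthase and not one of its subunits, read 8.55, 8.91 and 8.72 in WT, 6.49, 5.32 and 4.59 in Pb-ERG, 9.30, 7.94 and 6.82 in Trp53pc-/-, and 5.90, 4.79 and 5.78 in double mutants. It fell by 0.59 (SE 0.15, adjusted p = 0.0311, limma). Ndufv3 (a small subunit of the NADH-binding module of complex I) read 44.7, 49.8 and 36.6 in WT, 37.3, 35.4 and 38.8 in Pb-ERG, 44.7, 55.5 and 48.8 in Trp53pc-/-, and 32.2, 31.9 and 27.1 in double mutants. It fell by 0.50 (SE 0.14, adjusted p = 0.0380, limma), and double mutants lay below the other 9 libraries.

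These calls depended on single libraries and on the scale. Without WT replicate 2 no nuclear member fell, and without WT replicate 1, WT replicate 3 or double mutant replicate 1 only 1 did. Without double mutant replicate 3, 2 fell and the median was -0.27. Without WT replicate 2 the median was -0.03. On the deposited scale 5 nuclear members were called higher and 0 lower, where 22.0% and 1.4% of all tested genes were. The nuclear median was then 0.30, against 0.35 for all genes. Relative to the median gene the nuclear members were below 0 under all 15 settings and left-out libraries tried, by between -0.28 and -0.05. In this comparison 3 of 6 fibroblast, 3 of 4 proliferation, 1 of 6 immune and 2 of 11 luminal markers rose and 1 luminal marker fell. Of 7 smooth muscle markers 0 were called, with a median change of -1.64. Their sums overlapped, at 1609 to 2431 in WT and 1683, 1877 and 118 in double mutants. The 118 was replicate 3, and the other double mutant sums lay within the WT range. Cnn1 read 157, 216 and 155 in WT and 170, 193 and 0.98 in double mutants. The median change without replicate 3 is not given here. The part of all these markers was not tested.

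In double mutants against Trp53pc-/-, which asks what the ERG transgene adds to the Trp53 deletion, 9 nuclear members fell and Cox6b2 rose. The 9 were 11.8% of the 76, where 6.33% of tested genes were called lower and 8.27% higher. The median change was -0.39, against 0.00 over all genes, and 73 of 76 estimates were below 0. All 3 double mutant libraries lay below all 3 Trp53pc-/- libraries for 35 members (46.1%), where 16.7% of tested genes did so. They lay above for 2, where 18.8% did. By complex, estimates were below 0 for 36 of 36 complex I genes, 4 of 4 complex II genes, 8 of 8 complex III genes, 15 of 15 complex V genes and 8 of 11 complex IV genes. As deposited, estimates were above 0 for 19 complex I, 2 complex II, 3 complex III, 14 complex V and 9 complex IV genes. Double mutants lay below without overlap for 18 complex I genes, 3 complex II genes, 5 complex III genes, 2 complex IV genes and 5 complex V genes.

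Of the 9 that fell, 6 belong to complex I. Ndufv3, given above, fell by 0.69 (SE 0.14, adjusted p = 0.0139, limma). Ndufv1 (the NADH-binding subunit where electrons enter) read 46.2, 39.9 and 43.9 in WT, 42.2, 32.9 and 35.5 in Pb-ERG, 52.6, 57.4 and 49.1 in Trp53pc-/-, and 36.2, 37.3 and 29.96 in double mutants and fell by 0.61 (adjusted p = 0.0183, limma). Ndufs7 (a core subunit that holds an iron-sulphur cluster near the quinone site) read 21.3, 21.2 and 18.3 in WT, 23.4, 19.7 and 23.4 in Pb-ERG, 32.0, 41.2 and 24.0 in Trp53pc-/-, and 18.3, 19.2 and 23.5 in double mutants and fell by 0.62 (adjusted p = 0.0464, limma). Trp53pc-/- replicate 2 was the highest library for both, and the groups did not overlap. Ndufb5 and Ndufb10, supernumerary subunits of the membrane arm, fell by 0.60 and 0.55 (adjusted p = 0.0266 and 0.0440, limma). Ndufa13 fell by 0.68 (adjusted p = 0.0308, limma), from Trp53pc-/- levels above WT to levels that overlap with WT.

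The remaining 3 that fell were in complexes II, III and IV. Sdhc (a membrane anchor of succinate dehydrogenase) read 41.9, 35.6 and 40.8 in WT, 29.3, 27.0 and 31.9 in Pb-ERG, 53.2, 52.9 and 39.2 in Trp53pc-/-, and 27.5, 32.3 and 38.6 in double mutants and fell by 0.55 (adjusted p = 0.0455, limma). Cox8a (the broadly expressed form of the smallest complex IV subunit) read 215, 231 and 201 in WT, 208, 151 and 169 in Pb-ERG, 281, 298 and 242 in Trp53pc-/-, and 169.9, 187 and 143 in double mutants and fell by 0.72 (adjusted p = 0.0264, limma). Uqcrfs1 (the Rieske iron-sulphur protein of complex III) read 86.9, 83.7 and 79.2 in WT, 82.7, 82.9 and 82.1 in Pb-ERG, 85.0, 93.3 and 97.0 in Trp53pc-/-, and 66.1, 77.0 and 66.9 in double mutants and fell by 0.39 (adjusted p = 0.0432, limma), but its estimate turned to 0.06 on the deposited scale. Cox8a, Ndufv1 and Uqcrfs1 show the double mutants below every Trp53pc-/- library, and for Sdhc the gap was narrow, with a highest double mutant value of 38.6 and a lowest Trp53pc-/- value of 39.2. ATP synthase subunits had no call, with Atp5b at -0.36 and Atp5c1 at -0.41, which turned to 0.08 and 0.03 on the deposited scale.

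The number that fell rested on few libraries. Without Trp53pc-/- replicate 2 no nuclear member fell, without replicate 1 only 1 did, and without double mutant replicate 1, 2 did. Without double mutant replicate 3 the count was 11 and the median -0.45. The median stayed below that of all genes under all 15 settings and left-out libraries tried, by between -0.47 and -0.24. On the deposited scale the nuclear median was 0.06, above 0 but below the 0.30 of all genes, with 1 member called higher and 0 lower, where 18.7% and 1.03% of tested genes were. Markers of other cells moved in the same comparison. Of 6 fibroblast markers 4 rose, as did 3 of 6 immune markers, 3 of 5 endothelial markers and 3 of 4 proliferation markers. Of 11 luminal markers 1 rose and 2 fell. Of 7 smooth muscle markers 0 were called, with a median change of -2.09. Their sums did not overlap, at 2119 to 3209 in Trp53pc-/- and 1683, 1877 and 118 in double mutants. The 118 was replicate 3, and the median change without it is not given here. Summed fibroblast markers ran from 220 to 305 in Trp53pc-/- and from 513 to 1154 in double mutants, immune markers from 48.7 to 81.2 and from 142 to 391, endothelial markers from 13.1 to 13.4 and from 20.3 to 33.8, and luminal markers from 13779 to 21829 and from 1394 to 18207. Of the genes in these lists Cd79a alone was at 0 in any library, in 2 of them. Of 6 tested adipocyte markers 1 rose. The part of all these markers in the lower nuclear members was not tested.

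**Figure D4:**
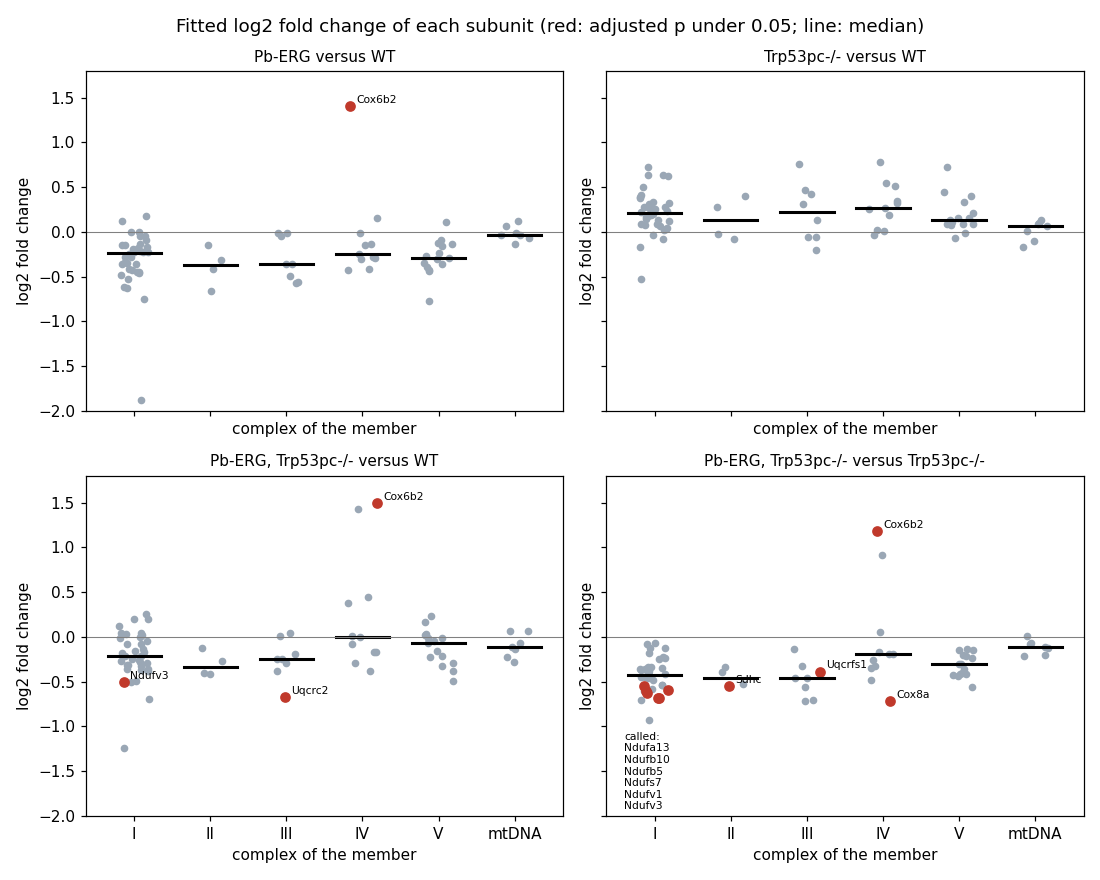
Fitted log2 fold change (vertical axis) of the 74 tested nuclear subunits by complex and of the 7 mitochondrial members, in 4 comparisons. Points are genes, red points passed an adjusted p under 0.05 and lines are medians. Nuclear points lie mostly below 0 for Pb-ERG against WT and for double mutants against Trp53pc-/- and mostly above 0 for Trp53pc-/- against WT, and no mitochondrial point is red. As deposited, the nuclear medians of the first 2 of these comparisons were 0.04 and 0.06.

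Double mutants and Pb-ERG, which differ by their labels in the deletion of Trp53, showed no nuclear member that rose or fell. limma and voom each called 0 of 76, where 0.017% of tested genes were called higher and 0.0113% lower, and at an unadjusted p under 0.05, 2 members were higher and 0 lower, where 6.66% and 5.73% of tested genes were. Without overlap, 8 members were higher and 3 lower in double mutants, where 7.92% and 8.05% of tested genes were. The median change was 0.10, against 0.00 over all genes, and it was 0.02 without double mutant replicate 3, 0.02 without Pb-ERG replicate 2 and 0.20 without double mutant replicate 1. The members higher at the unadjusted p were Cox7a1 and Ndufb4, named after their values were seen. Ndufb4, a complex I subunit of low level whose 50-base stretches are 18.3% shared with other genes, stood at 2.43, 5.23 and 2.82 in WT, 1.85, 1.66 and 1.25 in Pb-ERG, 5.44, 5.28 and 4.71 in Trp53pc-/-, and 2.40, 2.89 and 4.16 in double mutants. The non-additive effect asks whether both lesions together differ from the sum of each alone. limma called 0 of 76 nuclear members and 0 of all genes (0.0%), voom also called 0, and at an unadjusted p under 0.05, 0 were higher and 5 lower, where 4.01% and 4.13% of tested genes were. The median was -0.08, against 0.00 over all genes. It ran from -0.25 without WT replicate 2 to -0.01 without Trp53pc-/- replicate 2, and it turned to 0.04 on the deposited scale, where all genes had 0.08. Among the 5, Ndufs7 had a change of -0.75 (SE 0.26, adjusted p = 0.551, limma) and Ndufa13 a change of -0.63 (SE 0.25, adjusted p = 0.590, limma). The comparisons above share groups, so the Pb-ERG, Trp53pc-/- and double mutant values are set side by side and no agreement between them is read.

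No mitochondrial member rose or fell in any comparison. limma and voom called 0 of the 10 tested, and 0 had an unadjusted p under 0.05. The lowest p was 0.159. Over the 7 genes with over 1000 fragments, the medians were -0.03 in Pb-ERG against WT, 0.07 in Trp53pc-/- against WT, -0.11 in double mutants against WT, -0.05 in double mutants against Pb-ERG and -0.12 in double mutants against Trp53pc-/-. Over the 10 tested, which include mt-Co2, mt-Co3 and mt-Atp6, they were -0.02, 0.09, -0.01, 0.01 and -0.12. The intervals were wide, so that changes of the size seen for nuclear members were not detectable. mt-Co1 read 3241, 7236 and 4324 in WT, 3283, 7263 and 3993 in Pb-ERG, 4231, 4834 and 6470 in Trp53pc-/-, and 4539, 4950 and 5134 in double mutants, and its change in double mutants against WT was 0.06 with a 95% interval from -1.59 to 1.71. mt-Cytb read 2048, 4475 and 2655 in WT, 2137, 3975 and 2184 in Pb-ERG, 2660, 3010 and 3724 in Trp53pc-/-, and 2475, 2790 and 2800 in double mutants, with -0.11 and an interval from -1.36 to 1.13. mt-Nd1 read 1582, 2857 and 1963 in WT, 1732, 3241 and 1797 in Pb-ERG, 2053, 2321 and 2226 in Trp53pc-/-, and 1944, 1675 and 2075 in double mutants, with -0.13 and an interval from -1.17 to 0.91. In each gene WT replicate 1 was the lowest library, and the WT range covered that of the double mutants. As deposited, the medians of the 7 genes were all above 0, at 0.30, 0.12, 0.39, 0.13 and 0.33 in the order given, and mt-Cytb and mt-Nd1 in double mutants against WT turned to 0.39 and 0.37.

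Several complex IV and V subunits have alternative forms used in particular tissues, and in every library the broadly expressed form was the higher. The testis form Cox6b2 rose. It read 1.10, 1.31 and 1.33 in WT, 4.03, 5.01 and 5.96 in Pb-ERG, 1.68, 2.06 and 1.69 in Trp53pc-/-, and 5.34, 3.55 and 7.85 in double mutants, from 17 to 223 fragments per library, and all 6 libraries with the ERG transgene were above the 6 without it. Its mean was 4.01-fold the WT mean in Pb-ERG, 4.48-fold in double mutants, and 3.08-fold the Trp53pc-/- mean in double mutants. The changes were 1.41 (SE 0.23, adjusted p = 0.0166, limma) in Pb-ERG against WT, 1.499 (SE 0.23, adjusted p = 0.00594, limma) in double mutants against WT and 1.18 (SE 0.23, adjusted p = 0.0122, limma) in double mutants against Trp53pc-/-. The Pb-ERG call held in only 1 of 6 fits that left out a library of the groups compared, and its estimate then ran from 1.29 to 1.53. Without double mutant replicate 3, the highest library, the double mutant changes were 1.26 against WT and 0.94 against Trp53pc-/-, both still called. Even so, Cox6b2 remained a small share of its pair, since Cox6b1 stood at 303 to 504. None of the transcript's 50-base stretches is shared with another gene and no annotated exon overlaps it.

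Because ERG binds DNA at the core letters GGAA, the 250 bases before the start of Cox6b2 (chr7:4753095-4753344, minus strand, GRCm38.p6, RefSeq) are shown, followed by those of Ndufv3 (chr17:31519865-31520114, plus strand), which fell. Capitals mark GGAA on either strand.
Cox6b2: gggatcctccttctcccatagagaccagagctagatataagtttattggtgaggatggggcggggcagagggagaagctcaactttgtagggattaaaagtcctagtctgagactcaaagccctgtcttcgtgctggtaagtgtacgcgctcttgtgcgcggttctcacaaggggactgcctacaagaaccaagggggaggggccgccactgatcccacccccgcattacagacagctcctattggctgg
Ndufv3: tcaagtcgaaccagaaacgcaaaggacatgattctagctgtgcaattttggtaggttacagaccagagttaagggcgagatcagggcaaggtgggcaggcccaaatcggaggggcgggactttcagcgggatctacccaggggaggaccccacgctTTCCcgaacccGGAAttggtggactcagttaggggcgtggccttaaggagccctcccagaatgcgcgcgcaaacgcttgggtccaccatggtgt
The stretch of Cox6b2 holds no GGAA on either strand, and that of Ndufv3 holds it at 83 and 94 bases before the start. RefSeq promoters were matched for 68 of the 83 nuclear members. Over the same 250 bases GGAA was in 64 of them (94.1%), where 93.0% of the promoters of tested genes held it. The longer ETS site CCGGAAGT was in 3 (4.41%, against 5.35%), in Atp5h, Uqcr11 and Uqcrh. Of motifs of factors known to drive respiratory genes, the NRF1 site GCGCATGCG was in 6 (8.82%, against 2.77%), in Atp5g2, Atp5k, Atp5l, Cox6a1, Ndufa8 and Ndufa11. The ERR site TCAAGGTCA was in 1 (1.47%, against 0.24%), in Atp5g3, and the YY1 site AAGATGGCG was in 0, against 1.04%. All motifs were searched on both strands, and CCGGAAGT contains GGAA. Matches describe the letters only.

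The muscle forms stood out in 1 library. Cox7a1 (the heart and skeletal muscle form of a complex IV subunit) read 3.07, 4.70 and 1.85 in WT, 3.64, 2.26 and 3.24 in Pb-ERG, 5.61, 5.10 and 3.74 in Trp53pc-/-, and 6.70, 5.67 and 23.9 in double mutants. Double mutant replicate 3 was the highest library, and the others ran from 1.85 to 6.70. In double mutants against WT its change was 1.43 (SE 0.45, adjusted p = 0.0570, limma), and without that library 0.83 (adjusted p = 0.0987, limma). Cox6a2 was at 4.76 there, from 120 fragments, and at 0.07 or less elsewhere, from at most 1 fragment a library. Cox8b was at 6.20 there, from 86 fragments, and at 1.37 or less elsewhere. The same library held the highest skeletal muscle marker sum given above. The broadly expressed forms stood at 124 to 218 for Cox6a1, 140 to 295 for Cox7a2 and 143 to 298 for Cox8a, so they remained far above the muscle forms in every library. Of the testis forms, Cox7b2 was at 0.19 or less, against 108 to 215 for Cox7b, and Cox8c was at 0.23 or less. Atp5g1, Atp5g2 and Atp5g3 encode the same mature c-ring subunit of the ATP synthase with different import sequences. Atp5g3 led at 229 to 345, with Atp5g2 at 11.5 to 30.2 and Atp5g1 at 7.89 to 22.1. None of the 3 was called in any comparison, and 38.3% of the 50-base stretches of Atp5g2 are shared with other genes. The pseudogenes Atp5l-ps1, Atp5l-ps2 and Atp5l2-ps were at 0.56 or less.

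**Figure D5:**
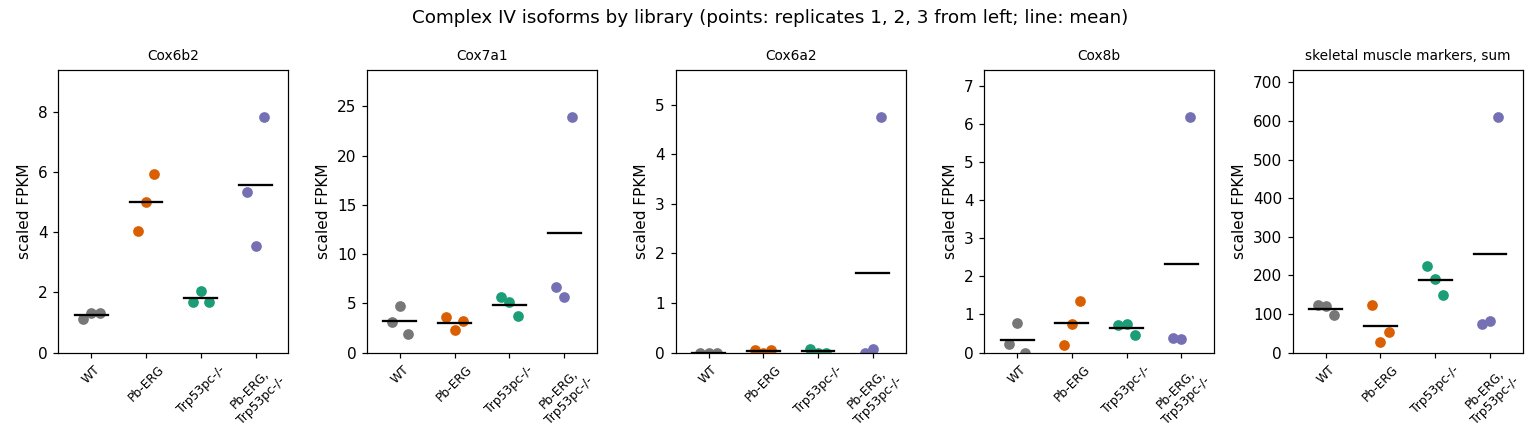
Scaled FPKM in each library (points, replicates 1 to 3 from the left, with a line at the mean) of Cox6b2, Cox7a1, Cox6a2 and Cox8b and of the summed skeletal muscle markers, by genotype, on axes that start at 0. Cox6b2 is higher in the 6 libraries with the ERG transgene, and the other 4 panels are highest in double mutant replicate 3.

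Other genes of the mitochondrion were taken from lists of known function, whose counts in double mutants against WT stand beside the 8.08% of all tested genes called higher and the 6.11% called lower. Of 43 assembly factors of the respiratory complexes, 0 rose and 3 fell (6.98%), with a list median of -0.23. Uqcc1, which helps to build complex III, fell by 0.44, from 15.8 ± 1.02 to 11.4 ± 0.453 scaled FPKM (mean ± SD, n = 3). Tmem126b and Ndufaf1, both needed to assemble complex I, fell by 0.58 and 0.37. Of 81 proteins of the mitochondrial ribosome, which translates the mitochondrial members, 0 rose and 6 fell (7.41%), with a median of -0.17. The largest falls were 1.97 for Mrps6, 0.69 for Mrps18b and 0.67 for Mrps28. Of 17 genes of the tricarboxylic acid cycle and pyruvate dehydrogenase, 0 rose and 3 fell (17.6%), with a median of -0.26. Fh1 (fumarase) fell by 0.91, from 53.7 ± 5.09 to 28.1 ± 4.01, Dld by 0.55 and Pdha1 by 0.46. Of 20 genes of mitochondrial biogenesis and DNA expression, 1 fell (Tfb1m, by 0.86), which is 5% of the list, and of 18 genes of import and membrane structure, 1 fell (Tomm20, a receptor for imported proteins, by 0.54), which is 5.56%. The 9 respiratory genes whose symbols the rule does not take, such as Cycs and Cyc1, had no call by limma, 0 at an unadjusted p under 0.05, and a median of 0.04. These directions are relative to the median gene: on the deposited scale the medians turned to 0.16 for assembly factors (4 called higher, 0 lower), 0.29 for ribosomal proteins (4 higher, 1 lower) and 0.24 for the cycle (1 higher, 0 lower), each below the 0.35 of all genes. The medians of biogenesis (0.40, 4 called higher), import and membrane structure (0.41, 1 higher) and the 9 genes outside the rule (0.52, 0 higher) were above it. Of the 15 called genes of these lists 3 turned on the deposited scale, Uqcc1 to 0.03, Ndufaf1 to 0.09 and Pdha1 to 0.04. Among the 9 genes outside the rule, 2 stood out in double mutant replicate 3. Ndufa4l2 read 42.7 there and 1.62 or less in every other library, and Cox4i2 read 14.5 there and 2.22 or less elsewhere.

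The glycolysis genes had a median on the other side of 0. Of 17 genes 1 rose (5.88%, where 8.08% of tested genes did) and 0 fell in double mutants against WT, with a median of 0.57 (1.07 on the deposited scale, where 5 were called higher). Hk1, a hexokinase that binds the mitochondrial surface, rose by 1.22 (adjusted p = 0.00777, limma), from 12.03 ± 1.85 to 29.6 ± 7.21. It read 12.04, 10.2 and 13.9 in WT, 19.7, 30.8 and 29.8 in Pb-ERG, 11.2, 11.3 and 11.3 in Trp53pc-/-, and 25.1, 25.8 and 37.9 in double mutants, and the 6 libraries with the transgene lay above the 6 without it. In Pb-ERG against WT, Hk1 rose by 1.07 and Mrps6, Tomm20, Uqcc1 and Ndufaf1 fell by 1.86, 0.77, 0.62 and 0.52, and these 5 were all the calls in the lists. In that comparison 9 of the 17 glycolysis genes lay above all WT libraries (52.9%), where 16.0% of tested genes did so. Against Trp53pc-/-, double mutants had 7 of 43 assembly factors (16.3%) and 22 of 81 ribosomal proteins (27.2%) lower and 0 higher, where 6.33% of tested genes were lower and 8.27% higher, with medians of -0.32 and -0.34, which turned to 0.07 and 0.06 on the deposited scale, where all genes had 0.30. In the other lists Ldhb, the heart form of lactate dehydrogenase, fell by 2.07, Esrra, a nuclear receptor that drives respiratory genes, by 0.88, Fh1 by 0.87, Tomm20 by 0.77 and Suclg1 of the cycle by 0.46, and Hk1 rose by 1.30. Of the 35 called genes of the lists in this comparison, Ndufaf7 alone turned on the deposited scale, from -0.37 to 0.04. In Trp53pc-/- against WT, none of these lists had a call by limma, and voom was not counted for them. The median of the mitochondrial ribosome there was 0.21 and that of glycolysis 0.19.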

How the data were processed

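RNA from frozen prostate tissue of 12 mice was sequenced as paired ends with a kit that does not mark strand. The deposited values are FPKM per gene, which the authors made by aligning to GRCm38/mm10 with STAR (2.5.2b in the submitters' processing notes) and counting with RSeQC. From FPKM, exon length and library totals, whole fragments were recovered for 255309 of 255309 values tested (tolerance 1e-06), which gave the totals of 19747635 to 32565774 fragments.

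FPKM was divided by median-of-ratios factors over 17088 genes above 0 in every library. Genes with 10 fragments in 3 libraries were kept, and log2(scaled FPKM + 1) was fitted with limma 3.58.1 in R 4.3.3 (trend, group means of all 12 libraries). Adjustment was over 17623 genes at 0.05, with the methods' 0.001 as an alternative. The script was tested on simulated data. Alternatives were FPKM as deposited, factors without abundant genes, other filters, a pseudocount of 0.1, voom, a fit of only the groups compared, a replicate block, and each library left out.

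Shared sequence was counted as 50-base stretches of GENCODE transcripts found in another gene on either strand. Named genes were the mitochondrial members, core subunits, tissue forms, the most abundant member per complex, called members, called genes of the pathway lists and members that missed the filter. The values of 1 core subunit are not reported here. Members and lists were chosen with earlier results of these data known. The same replicate numbers occur in each genotype and were not taken as pairs, because same-numbered mice are different animals. Deviations of same-numbered libraries correlated above 0.1 in 10 of 18 pairs, and calls with a replicate block are given below. Libraries of other genotypes of the study were not analysed here.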

Additional observations from a re-analysis of the deposited data

How the results depend on the processing

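Of the 15 calls of a member in a comparison, 15 held with 10 fragments required in every library and 15 with a pseudocount of 0.1, 12 without a filter, 11 with voom, 9 with factors set without abundant genes, 3 on the deposited scale, 2 with only the groups compared fitted and 0 at an adjusted p under 0.001. Uqcrfs1 in double mutants against Trp53pc-/- reversed to 0.06 on the deposited scale.

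In Pb-ERG against WT, 0 members were called higher with voom and at 0.001, and the median was 0.0446 on the deposited scale. In double mutants against WT, members called higher numbered 5 on the deposited scale, 2 with factors set without abundant genes, 2 with 10 fragments in every library, 2 with a pseudocount of 0.1 and 0 at 0.001. Those called lower numbered 0, 1 with factors set without abundant genes, 0 with only the groups compared and 0 at 0.001. On the deposited scale the nuclear median there was 0.304 and that of the 10 mitochondrial members 0.464. In double mutants against Trp53pc-/-, 0 were called higher with only the groups compared and at 0.001. Called lower were 0 on the deposited scale, 5 with factors set without abundant genes, 0 with only the groups compared, 6 with voom and 0 at 0.001, and the medians on the deposited scale were 0.0567 and 0.329. The mean of Cox6b2 in WT was 1.07 FPKM as deposited, and the summed nuclear level in double mutants was 9080 against 7422 scaled. The deposited scale carries the shift of the median gene given above. The cause of the other changes was not tested.

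Leaving out 1 library, the count called in Pb-ERG against WT ran from 0 to 1 higher and from 0 to 3 lower. In double mutants against WT it ran from 1 to 2 higher and from 0 to 2 lower, and against Trp53pc-/- from 0 to 11 lower. Cox7a1 in double mutants against WT (adjusted p 0.057, limma) passed the threshold in 5 alternatives.

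With a replicate block, 5 members fell in double mutants against Trp53pc-/- rather than 9. Of the 15 calls, those lost were Ndufb10, Ndufs7, Sdhc and Uqcrfs1 in that comparison, and the other 11 held. Deviations of same-numbered libraries correlated from -0.244 to 0.38, with 10 of 18 pairs over 0.1. All 3 pairs were over it for WT with Trp53pc-/-, where 0 members were called with or without the block, and for no other 2 genotypes. An effect shared by replicate number was not tested beyond the block and these values.

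The parts of counting error and of other differences between libraries in the spread were not separated. The pooled SD of the library medians was 0.182 for nuclear and 0.411 for mitochondrial members on the log2 scale.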
